A study of Mus musculus with 6 samples.

Results

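The 10 genes described here were grouped around the transport of cholesterol and other lipids between brain cells. They are the apolipoproteins Apoe and Clu, the efflux pumps Abca1 and Abcg1, the lipoprotein enzymes Lcat and Lpl, the lipoprotein receptors Lrp1 and Lrp4, and the sterol-sensing receptors Nr1h2 and Nr1h3. They were taken by gene symbol from a table of 45777 genes, and all 10 were found once each. Astrocytes were sorted from the brains of male C57BL/6-background mice carrying Aldh1l1 cre/ERT2 and tdTomato fl/fl, in which tamoxifen (75 mg/kg, on 5 days) switches on a red fluorescent protein in cells that express the astrocyte gene Aldh1l1. Both groups carried these alleles and received tamoxifen. At 8 weeks of age the mice were given 1 intraperitoneal dose of streptozotocin (STZ, 150 mg/kg), which kills insulin-producing beta cells, or citrate buffer alone (vehicle). Only STZ mice whose fasting blood glucose passed a set limit were kept, and the brain was taken 21 days after STZ. Each library held tdTomato-positive cells of 3 pooled mice, with 3 libraries per group. STZ itself and the high glucose that follows it cannot be told apart in this design.

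In the brain, lipoproteins are made locally, mainly by astrocytes. Abca1 loads cholesterol and phospholipid onto newly secreted apolipoprotein E, Abcg1 adds more to particles that already hold lipid, and Lcat esterifies the cholesterol so that it moves into the core of the particle. Lipoprotein receptors, Lrp1 among them, take the particles up. The liver X receptors (LXR), encoded by Nr1h3 and Nr1h2, are switched on by oxidized cholesterol and are known to raise the transcription of Abca1, Abcg1 and Apoe.

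Libraries held 52529048 to 58749115 read counts, so a floor of 3 counts, which covers counting error only, corresponded to 0.0511 to 0.0571 CPM (counts scaled to a common library total). The lowest count of any of the 10 genes in any library was 157, for Lpl. The 8 astrocyte markers, led by Gja1 and Slc1a3, summed to 8213.0 to 10044.3 TPM (transcript counts corrected for length and scaled to a common total) with vehicle and 7505.3 to 8358.5 TPM with STZ. Of these 8, 2 had a positive log2 fold change (STZ over vehicle), and the median was -0.15. The 8 microglial markers summed to 609 to 933 TPM and the 7 neuronal markers to 29.9 to 56.5 TPM, with Slc17a7 at 0 in at least 1 library. Choroid plexus markers, mostly Ttr, summed to 10449.1 to 29553.8 TPM with vehicle and 15788.3 to 26665.2 TPM with STZ, which was more than the astrocyte list in every library. Their median log2 fold change was -0.35, with 0 of 7 positive. The 5 border macrophage markers summed to 21.4 to 38.6 TPM with vehicle and 14.1 to 23.0 TPM with STZ (median -0.82, 0 of 5 positive). Oligodendrocyte markers summed to 475 to 1551 TPM with vehicle and 557 to 2362 TPM with STZ (median -0.12, 3 of 7 positive). Ependymal markers summed to 158 to 407 TPM and 314 to 542 TPM (median 0.60, 4 of 4 positive). The microglial median was -0.06, with 1 of 8 positive. Endothelial markers summed to 62.5 to 220 TPM with vehicle and 229 to 439 TPM with STZ, and pericyte and smooth muscle markers to 53.5 to 64.9 TPM and 84.5 to 111 TPM. Neither of the vascular lists overlapped between the groups. In such bulk libraries, fewer cells of a type and less RNA per cell cannot be told apart.

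**Figure D1:**
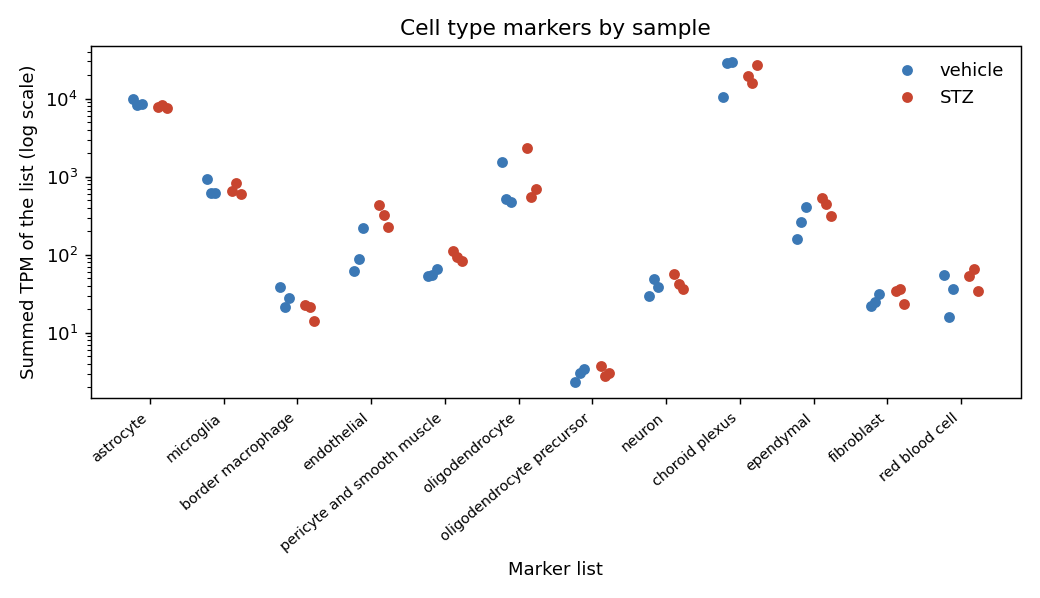
Summed TPM of each cell type's marker genes (vertical axis, log scale) by marker list (horizontal axis), with 1 point per library, vehicle in blue and STZ in red. The endothelial and the pericyte and smooth muscle lists lie higher in all 3 STZ libraries than in any vehicle library, while the microglial list runs from 618 to 933 TPM with vehicle and from 609 to 842 TPM with STZ.

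The levels of the 10 genes covered over 4 orders of magnitude in TPM and kept nearly the same order in every library. They describe whole libraries and not astrocytes alone, since choroid plexus markers summed to more TPM than the astrocyte list, as given above. Apoe was the most abundant of the 22337 genes tested, with a mean of 34346.5 TPM ± 1703.6 (SD, n = 6). Clu ranked 4 with 10867.0 TPM ± 511, and Lcat ranked 198 with 590 TPM ± 54.3 (SD, n = 6). Together the 10 genes held 2.94% to 3.07% of all counts in a library, most of it Apoe. Below these lay Nr1h2 at 100.1 TPM ± 7.64, Lrp1 at 51.9 ± 7.11, Abca1 at 29.5 ± 3.16 and Nr1h3 at 16.01 ± 1.78 (SD, n = 6). Lrp4 had 6.51 TPM ± 1.01, Lpl 2.93 ± 1.16 and Abcg1 1.81 ± 0.278 (SD, n = 6). Neighbors in this order did not overlap in any library, except Lpl and Abcg1, whose ranges crossed and whose order held in 5 of 6 libraries. Within each pair of related genes, the ratio of TPM was far from 1. Nr1h2 exceeded Nr1h3 by 6.50-fold ± 0.399 with vehicle and 6.20-fold ± 1.67 with STZ (SD, n = 3), and Abca1 exceeded Abcg1 by 16.7-fold ± 3.12 and 16.3-fold ± 2.36.

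**Figure D2:**
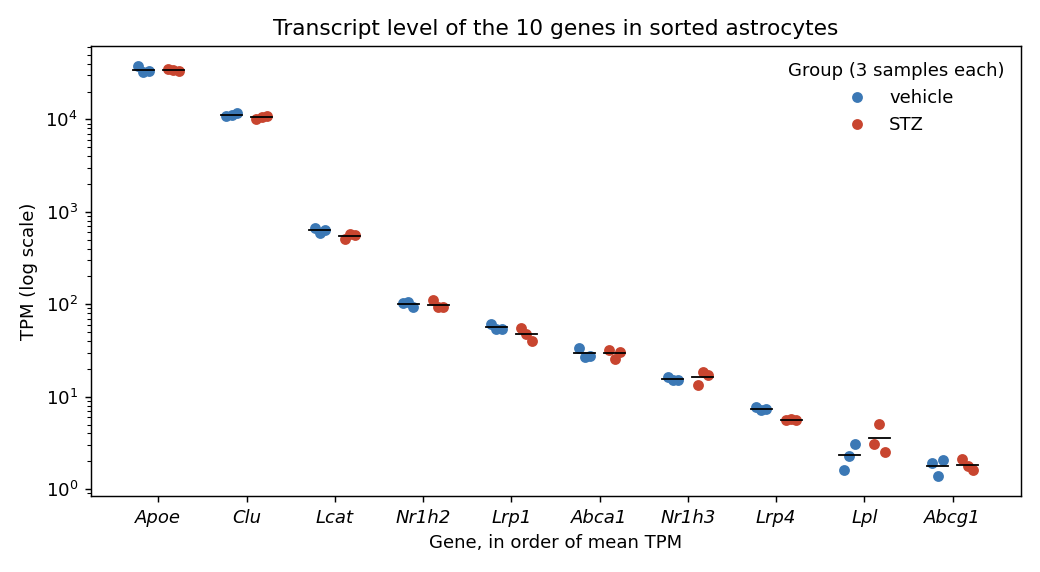
TPM of the 10 genes (vertical axis, log scale), in order of their mean over all libraries (horizontal axis), with 1 point per library and a line at each group mean. Apoe has a mean of 34346.5 TPM and Abcg1 of 1.81 TPM, and vehicle and STZ libraries lie close together for most genes.

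Whether STZ changed this set was tested with edgeR's quasi-likelihood test on the counts of all 22337 genes with at least 1 count in every library. A gene was called at a fold change over 1.5 with an adjusted p under 0.05. None of the 10 genes was called, and their adjusted p-values lay between 0.328 and 0.996. Among all genes tested, 5 were called (0.0224%), with 0.00895% higher and 0.0134% lower in STZ. DESeq2, the study's tool, also called 0 of the 10, against 1.27% of the genes for which it gave an adjusted p. At an unadjusted p under 0.05 there were 2 of 10 with edgeR, both lower in STZ, against 11.3% of all genes (5.63% higher and 5.65% lower). DESeq2 gave 3 of 10 at that limit, beside 2309 of the 22337 genes tested. The values of 3 genes, Lrp4, Lcat and Lrp1, did not overlap between the groups in normalized CPM, all lower in STZ, where 18.5% of all genes did not overlap (9.85% lower and 8.64% higher in STZ). The median log2 fold change (STZ minus vehicle) of the 10 genes was -0.031, beside 0.012 over all genes tested, and 6 of 10 were negative, beside 48.1%.

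The differences were small as well as below the threshold. For 9 of the 10 genes the 95% interval of the log2 fold change lay wholly inside a 1.5-fold change in either direction, and Lpl was the exception. Over all genes tested, 44.4% had such an interval. Of the 10 genes, 8 lay above the median TPM of all tested genes, so the 44.4% is not a share among genes of like level. How the width of an interval depends on level was not tested. Among the 10, the scarce Lpl and Abcg1 had the largest standard errors (0.335 and 0.213), but that of Apoe (0.139) was larger than that of Lrp4 (0.1003). With the replicate number as a block, which leaves fewer degrees of freedom, 6 of the 10 intervals stayed inside 1.5-fold. The share over all genes was not computed for that run.

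**Figure D3:**
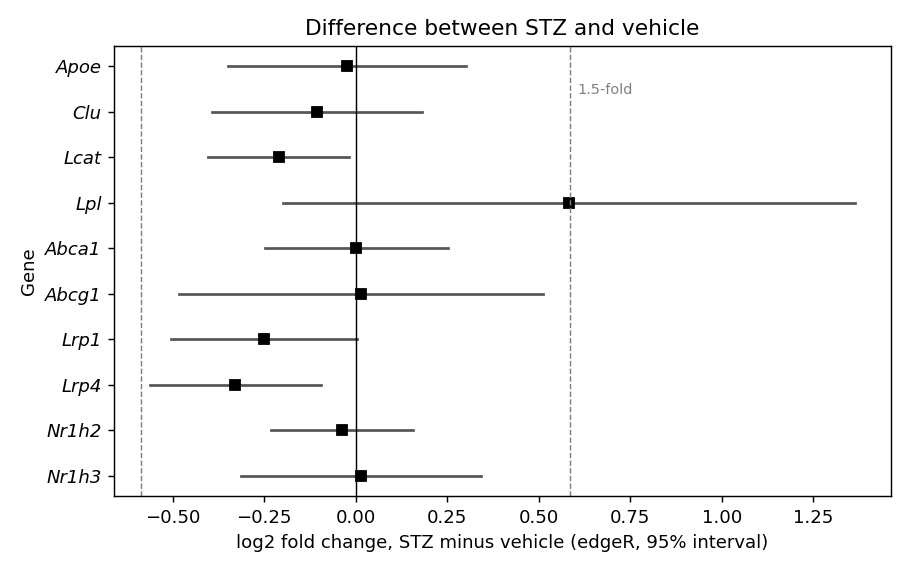
Log2 fold change of each gene, STZ minus vehicle (horizontal axis, square), with its 95% interval from edgeR (line). Dashed lines mark a 1.5-fold change, which only the interval of Lpl crosses, and the intervals of Lcat and Lrp4 lie below 0.

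Apoe, the main apolipoprotein of brain lipoproteins, lies on chromosome 7 (19696244 to 19701310, minus strand, GRCm38.p6, NCBI gene 11816). It had 21372.8, 19478.3 and 20032.6 normalized CPM in vehicle libraries 1 to 3 and 20072.5, 20068.3 and 19751.9 in STZ libraries 1 to 3. All 3 STZ values fell within the vehicle range. The difference was -0.02 on the log2 scale (standard error 0.139), with a 95% interval from -0.35 to 0.30, or from -21.5% to 23.2%. Clu encodes clusterin, also called apolipoprotein J, a secreted chaperone that is a further apolipoprotein of astrocytes (chromosome 14, 65968483 to 65981548, plus strand). It had 8906.8, 9302.5 and 9899.8 normalized CPM with vehicle and 8158.6, 8826.2 and 9149.6 with STZ. The groups overlapped in CPM, and the log2 fold change was -0.11 (standard error 0.123, 95% interval -0.39 to 0.18, adjusted p = 0.782 from edgeR). In TPM the Clu groups did not overlap, with 10996.4 to 11575.0 in the vehicle libraries and 10027.8 to 10854.7 in the STZ libraries.

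Abca1 (chromosome 4, 53030789 to 53159988, minus strand) had 154, 129 and 134 normalized CPM with vehicle and 150, 121 and 147 with STZ. The group means were 139 ± 13.1 and 139 ± 15.8 (SD, n = 3), and the log2 fold change was 0.0022 with a 95% interval from -0.25 to 0.25. The sign of so small a value turned negative in 9 of 14 alternative settings. Abcg1 (chromosome 17, 31057694 to 31117984, plus strand) was much scarcer, with 4.998, 3.78 and 5.72 normalized CPM in the vehicle libraries. Its STZ values were 5.56, 4.69 and 4.41, and the log2 fold change was 0.01 (standard error 0.213, 95% interval -0.48 to 0.51). For both pumps the spread within a group was larger than the difference between the groups.

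The LXR genes, whose products regulate these pumps, also had overlapping groups. Nr1h2, which encodes LXR beta (chromosome 7, 44549616 to 44553968, minus strand), had 95.6, 101 and 92.3 normalized CPM with vehicle and 103, 90.8 and 87.5 with STZ. The difference was -0.04 on the log2 scale (standard error 0.0833, 95% interval -0.23 to 0.16). Nr1h3, which encodes LXR alpha (chromosome 2, 91184061 to 91202829, minus strand), had 12.9, 13.9 and 13.3 normalized CPM with vehicle. In STZ it had 11.2, 15.1 and 14.2, so the STZ libraries lay on both sides of the vehicle libraries. Its log2 fold change was 0.01 (standard error 0.141, 95% interval -0.31 to 0.34). Nr1h3 overlaps Acp2, a gene of the opposite strand, by 18 bases, and Acp2 had 9173 counts on average where Nr1h3 had 762. The sources used here do not say whether reads were counted by strand, so reads in the shared bases cannot be assigned to either gene with certainty.

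The stretches just before the transcription start are shown for Abca1, the efflux pump that LXR is known to drive, for Apoe, and for Lcat and Lrp1, whose normalized CPM was lower in all STZ libraries. RefSeq's promoter table for GRCm38.p6 held 6 of the 10 genes (Apoe, Abca1, Lcat, Lrp1, Nr1h2 and Nr1h3, not Clu, Abcg1, Lpl or Lrp4). For each gene the 250 bases before the most upstream start in that table were searched on both strands for the nuclear receptor half-site AGGTCA, for a loose pair of such half-sites with 4 bases between them (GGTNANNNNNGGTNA), and for the GC box GGGCGG. Matches are in capitals, on either strand, and all 4 sequences are from the minus strand of the genome.
Abca1 (chr4:53159896-53160145), the LXR target: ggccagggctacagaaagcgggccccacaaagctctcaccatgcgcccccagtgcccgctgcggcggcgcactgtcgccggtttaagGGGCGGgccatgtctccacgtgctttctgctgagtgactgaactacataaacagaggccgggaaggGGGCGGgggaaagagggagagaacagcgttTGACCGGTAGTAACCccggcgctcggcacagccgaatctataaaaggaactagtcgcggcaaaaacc
Apoe (chr7:19699189-19699438), the most abundant gene: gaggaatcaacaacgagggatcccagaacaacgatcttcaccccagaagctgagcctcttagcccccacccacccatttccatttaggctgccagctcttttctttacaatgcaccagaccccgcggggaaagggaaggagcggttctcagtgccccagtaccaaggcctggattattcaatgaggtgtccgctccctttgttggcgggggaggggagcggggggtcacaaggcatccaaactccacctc
Lcat (chr8:105943403-105943589), lower in normalized CPM in all 3 STZ libraries: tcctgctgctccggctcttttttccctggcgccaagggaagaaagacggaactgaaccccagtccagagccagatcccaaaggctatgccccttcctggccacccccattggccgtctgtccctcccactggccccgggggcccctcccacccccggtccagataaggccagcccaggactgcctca
Lrp1 (chr10:127621149-127621398), lower in normalized CPM in all 3 STZ libraries: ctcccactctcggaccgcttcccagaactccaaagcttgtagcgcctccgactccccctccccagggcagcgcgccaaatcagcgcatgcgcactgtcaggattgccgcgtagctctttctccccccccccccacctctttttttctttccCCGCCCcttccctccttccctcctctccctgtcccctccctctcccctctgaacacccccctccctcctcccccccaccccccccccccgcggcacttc
Of Lcat only the 187 bases next to the start are printed, because the other 63 hold exon sequence of the neighboring gene Slc12a4. The Apoe window lies inside the annotated span of the gene, which reaches further upstream than the starts in the promoter table. The loose pair matched in Abca1 alone, as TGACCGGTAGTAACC, which begins 67 bases before the start, and 0.633% of 27025 windows of the same length (1 per gene) held such a match. The half-site AGGTCA was in none of the 6 windows and in 13.8% of all windows, and the strict pair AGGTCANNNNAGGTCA was in 0.0111% of all windows. The GC box was in the windows of Abca1 and Lrp1 and in 33.0% of all windows. A match describes letters in this window only.

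Lrp4 had the smallest p of the 10 genes. It encodes a lipoprotein receptor family member best known as the agrin receptor at the neuromuscular junction (chromosome 2, 91457456 to 91513901, plus strand, NCBI gene 228357), and it starts 254626 bases beyond the end of Nr1h3. Normalized CPM was 20.2, 20.0 and 20.2 in the vehicle libraries and 15.7, 17.6 and 14.8 in the STZ libraries. Every STZ library was below every vehicle library, and the vehicle libraries hardly differed (20.2 ± 0.150 against 16.05 ± 1.41, SD, n = 3). The log2 fold change was -0.33 (standard error 0.1003, 95% interval -0.56 to -0.09, unadjusted p = 0.0122, adjusted p = 0.328 by edgeR), a change of -20.4%. In TPM the difference was somewhat larger, with 7.79, 7.17 and 7.27 with vehicle and 5.54, 5.70 and 5.57 with STZ, a log2 ratio of the means of -0.40. When single libraries were left out, the edgeR log2 fold change of Lrp4 stayed between -0.40 and -0.28.

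Lrp1, the large endocytic receptor that takes up apolipoprotein E particles and many other ligands (chromosome 10, 127538157 to 127621148, minus strand), had a higher TPM than Lrp4 in every library. It had 404, 375 and 378 normalized CPM with vehicle and 372, 321 and 280 with STZ. The STZ libraries were lower, but STZ library 1 lay close under the lowest vehicle library. In TPM that library, at 55.4, was above vehicle libraries 2 and 3, at 54.1 and 53.7, so the groups overlapped on that scale. Its log2 fold change was -0.25 (standard error 0.109, 95% interval -0.51 to 0.0038, unadjusted p = 0.0527, adjusted p = 0.450 from edgeR). Without STZ replicate 3, which had the lowest value, it was -0.16, and without STZ replicate 1 it was -0.36.

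Lcat, which encodes lecithin cholesterol acyltransferase (chromosome 8, 105939551 to 105943402, minus strand, NCBI gene 16816), had 406, 375 and 411 normalized CPM with vehicle and 315, 359 and 355 with STZ. The groups did not overlap on this scale, nor in TPM, where the vehicle libraries had 592 to 664 and the STZ libraries 514 to 576. The log2 fold change was -0.21 (standard error 0.0828, 95% interval -0.40 to -0.02, unadjusted p = 0.0364, adjusted p = 0.412 by edgeR), a change of -13.6%. The astrocyte, choroid plexus, border macrophage, oligodendrocyte and microglial lists also had negative medians, as given above. Their part in the lower values of Lrp4, Lrp1 and Lcat was not tested.

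Lpl, which encodes lipoprotein lipase, the enzyme that frees fatty acids from lipoprotein triglycerides (chromosome 8, 68880555 to 68906932, plus strand), was the most variable of the 10 genes. Normalized CPM was 2.93, 4.32 and 5.92 in the vehicle libraries and 5.62, 9.29 and 4.82 in the STZ libraries. Only STZ library 2 stood above all vehicle libraries. The log2 fold change was 0.58 (standard error 0.335) and its 95% interval ran from -0.20 to 1.36, or from -12.8% to 157% (adjusted p = 0.545 from edgeR). These data therefore do not limit a change of Lpl to under 1.5-fold. When single libraries were left out, its log2 fold change ranged from 0.25 (without STZ replicate 2) to 0.85 (without vehicle replicate 3), and without vehicle replicate 1 it was 0.36. Marker lists with a positive median log2 fold change included the endothelial (1.26), pericyte and smooth muscle (1.02), ependymal (0.60) and oligodendrocyte precursor (0.20) lists. The astrocyte, choroid plexus, border macrophage, oligodendrocyte and microglial lists had negative medians. The part of any of these cell types in the values of Lpl was not tested.

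**Figure D4:**
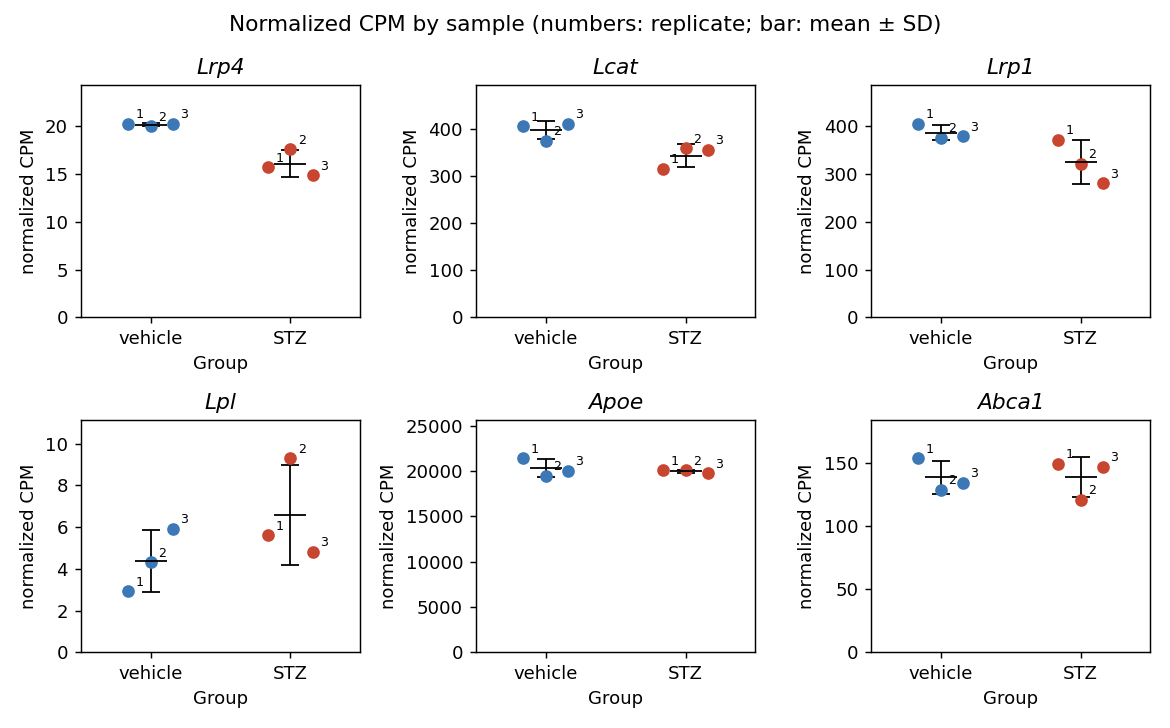
Normalized CPM (vertical axis, from 0) of 6 of the genes in vehicle (blue) and STZ (red) libraries, numbered by replicate, with the group mean ± SD. Lrp4, Lcat and Lrp1 lie lower in all STZ libraries in this unit, Lpl overlaps between the groups, and Apoe and Abca1 have near-equal means.

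The wider pathway was described with 6 further lists holding 119 genes, of which 100 were tested. EdgeR called 0 of them and DESeq2 called 4, where it called 1.27% of all genes. By edgeR 27 of the 100 had an unadjusted p under 0.05 (18 lower and 9 higher in STZ), where 11.3% of all genes did. Groups did not overlap for 32 of the 100, beside 18.5% of all genes (9.85% lower and 8.64% higher in STZ). The lists share some genes, and no list was tested as a set. They were chosen with earlier results of these data known, so these counts cannot tell whether the wider pathway differs from other genes.

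Among 25 other lipoprotein receptors, chaperones and adaptors, 24 were tested. Their median log2 fold change was -0.08, and 16 were negative. Sorl1, a sorting receptor, had a log2 fold change of -0.32 (adjusted p = 0.302 from edgeR), Lrp10 of -0.21 and Lrpap1, the chaperone of these receptors, of -0.17. Groups did not overlap for 6 of the 24, all lower in STZ, beside 9.85% of all genes lower.

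Among 22 other apolipoproteins, 13 were tested, 10 had a positive log2 fold change, and the median was 0.55. Apoc1, which lies 3584 bases from Apoe (chromosome 7, 19689480 to 19692659) and encodes a small apolipoprotein, had 5.67, 5.01 and 5.34 normalized CPM with vehicle and 12.9, 9.84 and 9.72 with STZ. Groups did not overlap for 3 of the 13, all higher in STZ, beside 8.64% of all genes higher. Apoc1 and Apoc3 were named for this. The groups of Apoe overlapped. The log2 fold change of Apoc1 was 1.02 (standard error 0.168, 95% interval 0.63 to 1.41), with an adjusted p of 0.169 from edgeR and 1.23e-05 from DESeq2. Apoc3 was scarce, with 0.988, 1.04 and 1.47 normalized CPM with vehicle and 2.36, 2.37 and 1.60 with STZ (log2 fold change 0.85, adjusted p = 0.349 from edgeR and 0.181 from DESeq2). The more abundant Apod and Apoo had log2 fold changes of 0.06 and -0.12, and their groups overlapped. Beside these, the pericyte and smooth muscle markers were higher in STZ (6 of 7 with a positive log2 fold change, median 1.02). The endothelial and ependymal lists also had positive medians (1.26 and 0.60), and the border macrophage and microglial lists negative ones (-0.82 and -0.06). The part of any of these cell types in the apolipoprotein values was not tested.

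Of 19 other ABC lipid transporters, 16 were tested, 11 had a negative log2 fold change, and the median was -0.06. Groups did not overlap for 2 lower and 2 higher in STZ, beside 9.85% and 8.64% of all genes. Abcg4, Abca8a, Abca5 and Abcg2 were named for this. Abcg4, a close relative of Abcg1 that moves sterols in the brain, had 46.8, 34.2 and 40.7 normalized CPM with vehicle and 33.0, 33.3 and 32.8 with STZ (log2 fold change -0.29, adjusted p = 0.410 from edgeR). In TPM the groups of Abcg4 overlapped, with 19.06 in vehicle library 2 and 19.57 in STZ library 1. The transporters with the highest TPM, the peroxisomal Abcd3 and Abcd2, had log2 fold changes of -0.08 and -0.22, and their groups overlapped. Abca5 had 15.4, 15.9 and 18.8 normalized CPM with vehicle and 19.9, 19.1 and 19.3 with STZ (log2 fold change 0.22, adjusted p = 0.494 from edgeR), with no overlap. Abca8a was scarce, with a mean of 1.49 TPM and a log2 fold change of -0.61 (adjusted p = 0.403 from edgeR). Abcg2, a drug and lipid pump best known from endothelium of the blood-brain barrier, had 8.69, 10.8 and 23.4 with vehicle and 32.3, 28.4 and 24.4 with STZ. The STZ libraries were all higher, by little over vehicle library 3 in the case of STZ library 3. The difference was 0.99 on the log2 scale (adjusted p = 0.374 from edgeR and 0.0444 from DESeq2). When single libraries were left out, it ranged from 0.72 to 1.53, the latter without vehicle replicate 3. All 9 endothelial markers had a positive log2 fold change, with a median of 1.26, and their part in the values of Abcg2 was not tested.

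Among 18 LXR partners, co-regulators and targets, 17 were tested and 12 had a negative log2 fold change, with a median of -0.02. Groups did not overlap for 4 of the 17, all lower in STZ, beside 9.85% of all genes lower. The members that differed most were the fatty acid desaturases Scd1 and Scd2, which are also driven by the sterol regulator SREBP. Scd1 had 121, 99.0 and 98.0 normalized CPM with vehicle and 68.6, 69.8 and 68.05 with STZ (log2 fold change -0.62, adjusted p = 0.157 from edgeR and 0.000125 from DESeq2). Its STZ libraries lay close together, under all vehicle libraries. Scd2 had a log2 fold change of -0.46 (adjusted p = 0.301 from edgeR and 0.0293 from DESeq2), under the fold limit. Pltp, the phospholipid transfer protein gene and a textbook LXR target, varied widely within groups, with 185, 321 and 406 normalized CPM with vehicle and 430, 325 and 323 with STZ. The textbook LXR targets Abca1, Abcg1 and Apoe had log2 fold changes near 0, as given above.

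The 19 lipase and LCAT helpers and related enzymes (14 tested, 9 negative, median log2 fold change -0.14) include Lmf1 and Lmf2, which help lipases such as lipoprotein lipase to fold. Groups did not overlap for 5 genes of the list lower and 1 higher in STZ, beside 9.85% and 8.64% of all genes. Lmf1 and Lmf2 were named for this. Their log2 fold changes were -0.28 and -0.27 (adjusted p = 0.347 and 0.301 from edgeR), where that of Lpl was positive. Pla2g7, a lipoprotein-associated phospholipase and the most abundant gene of the list at a mean of 2633.0 TPM, had a log2 fold change of -0.27, and Pnpla2, the lipase of lipid droplets, of 0.31 (adjusted p = 0.258 from edgeR). Of the 21 genes of intracellular sterol traffic, all tested, 14 were negative, with a median of -0.12. Cyp46a1, which turns cholesterol into an oxysterol that activates LXR, had 92.6, 87.6 and 83.2 normalized CPM with vehicle and 68.8, 75.4 and 62.7 with STZ (log2 fold change -0.35, adjusted p = 0.283 from edgeR and 0.0872 from DESeq2). Gramd1a, a sterol carrier at membrane contacts, had a log2 fold change of -0.33 and Npc2, which carries cholesterol in lysosomes, of -0.16. Plin2, a lipid droplet coat protein, and Osbpl6 had positive values of 0.25 and 0.29. In this list groups did not overlap for 7 genes lower and 3 higher in STZ, beside 9.85% and 8.64% of all genes. Cyp46a1, Gramd1a, Plin2 and Osbpl6 were named for this, and the groups of Npc2 did not overlap either. Cyp7b1, an oxysterol hydroxylase and among the most abundant of the list, had a log2 fold change of -0.18 with overlapping groups.

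**Figure D5:**
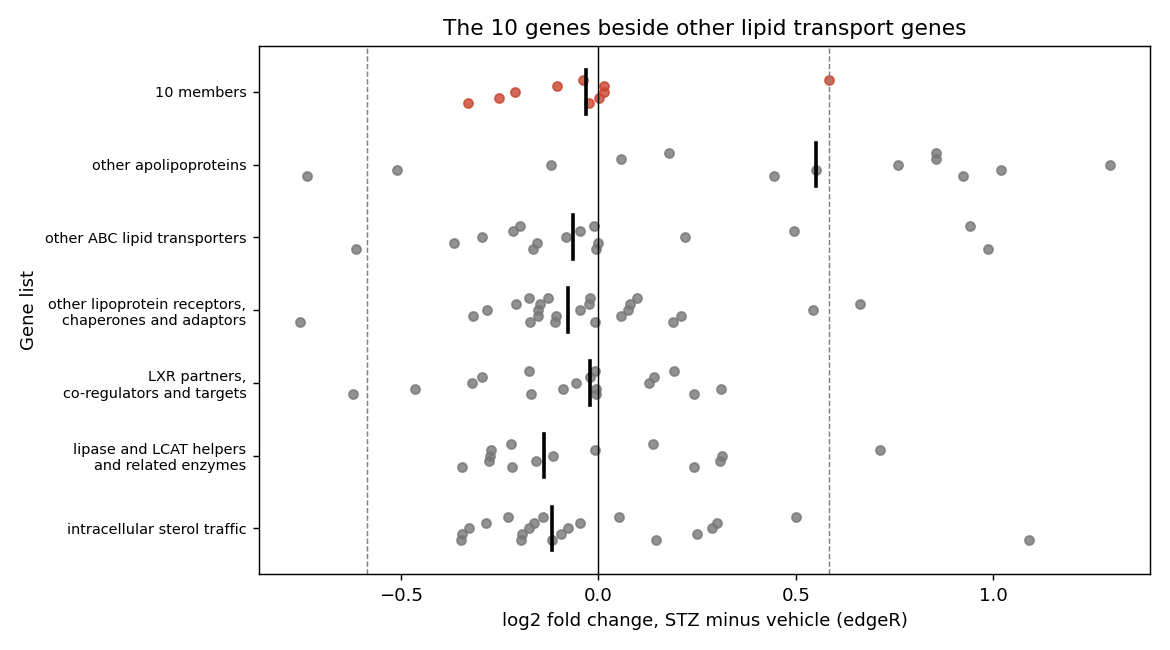
Log2 fold change, STZ minus vehicle (horizontal axis), of the 10 genes (red) and of the tested genes of 6 other lipid transport lists (gray), with a bar at each median and dashed lines at a 1.5-fold change. Of the 10 genes only Lpl lies near the 1.5-fold line, and the other apolipoproteins have the highest median, 0.55.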

How the data were processed

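Libraries were made from polyA RNA of sorted tdTomato-positive astrocytes. Per the submitters' processing notes and the study's methods, reads were trimmed with Trimmomatic 0.38, aligned to mm10 with HISAT2 2.1.0 and quantified with StringTie 2.1.3b. The labels name a SMART-Seq kit and the methods also a TruSeq kit. The annotation and use of strand are not given in the sources used here. The deposited read counts are whole numbers per gene without normalization, and they were tested. TPM, likewise deposited by the authors, served to compare levels between genes. The FPKM values, also made by the authors, were not used.

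The study's filter, a minimum of 1 count in all samples, left 22337 genes. Their counts were fitted in R 4.3.3 with edgeR 4.0.16 (quasi-likelihood test, TMM scaling, group only, two-sided, Benjamini-Hochberg over all genes). Normalized CPM is CPM scaled by TMM. Standard errors are the log2 fold change over the root of F. Alternatives were DESeq2 1.42.0, its size factors in edgeR, other filters, robust fitting, the replicate number as a block, limma 3.58.1 on log2(TPM + 1) and log2(TPM + 0.1), and leaving out each sample. Procedures were tested on simulated data. Named genes were all 10 members and, of each list, the called genes, the 2 with the smallest p in each direction among those with groups that do not overlap, and the 2 with the highest TPM. A called gene of the lists is not reported here. Members and lists were chosen with earlier results of these data known. Samples are separate pools of mice per the methods. Positions are RefSeq's for GRCm38.p6, the assembly of mm10. Promoter windows were searched with Python 3.11.15.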

Additional observations from a re-analysis of the deposited data

How the results depend on the processing

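None of the 10 genes was called under any alternative run. The count over all 22337 genes was 5 and moved to 234 with DESeq2, 10 with robust fitting, 0 with the replicate block, 0 with limma on log2(TPM + 1) and 0 with limma on log2(TPM + 0.1), and lay between 0 and 1 with a sample left out. Of the pathway list genes, 0 were called by edgeR and 4 by DESeq2 (Apoc1, Abcg2 and Scd1 among them). Lrp4, Lcat, Lrp1 and Clu kept a negative and Lpl a positive log2 fold change in all 14 alternatives. The sign of Abca1 turned with DESeq2 (-0.0031), its size factors (-0.0031), no low-count filter (-0.0061), filterByExpr (-0.00074) and the replicate block (-9.0e-05). With a sample left out, log2 fold changes ranged from -0.063 to 0.094 for Abca1, -0.066 to 0.012 for Apoe, -0.15 to 0.14 for Abcg1, -0.11 to 0.011 for Nr1h2 and -0.074 to 0.13 for Nr1h3.

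Same-numbered samples did not deviate together (correlations over genes of -0.101, -0.162 and -0.184 for numbers 1, 2 and 3). With 3 samples per group, this cannot tell whether they shared a batch. With the replicate block in edgeR, the unadjusted p was under 0.05 for 2 of the 10, beside 1793 of the 22337 genes tested. Lrp4 had an adjusted p of 0.601 in that edgeR run. Counting error is small at this depth except for Lpl and Abcg1, whose counts started at 157 and 196. Causes of these shifts were not tested.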
